A study of Mus musculus with 9 samples.

Results

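The expression of 10 genes of the brain endothelium and the blood-brain barrier was compared array by array in whole brain tissue of control, model and HPYD mice. The members were chosen by name, as rows of the deposited table with 1 of 10 gene symbols (Cldn5, Pecam1, Slc2a1, Abcb1a, Mfsd2a, Flt1, Cdh5, Tek, Slco1a4 and Ocln), and all 10 were measured among 19938 genes with a single symbol. There were 9 GeneChip Mouse Gene 1.0 ST arrays, 3 in each group. The control group was C57/6J mice given saline through the nose. The model group was APP/PS1 transgenic mice on the C57/6J background, a strain with amyloid precursor protein and presenilin transgenes that develops plaques, and it was given saline in the same way. The HPYD group was APP/PS1 mice given HPYD, a peptide designed to break β-sheets, daily through the nose. The methods describe the controls as mice of the same age. All brains were taken after the Morris water maze test. Neither the transgenes' promoter nor the name of the line was found in the labels or methods. Nothing states that the arrays of a group were separate mice, and p-values here cover only the spread between arrays, which may be technical. In whole tissue, fewer endothelial cells and less RNA per cell cannot be told apart.

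The blood-brain barrier is formed by the endothelial cells of brain capillaries. Tight junctions seal the space between these cells, transporters carry glucose, lipids and organic anions across them or pump drugs back into the blood, and pericytes and astrocyte endfeet surround them. Signals of the Wnt family from neural cells induce barrier genes in the endothelium, while VEGF and angiopoietins act on its receptor tyrosine kinases.

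Values are log2 signals as deposited, so that a difference of 1 is a doubling, and they are not compared between genes. Array medians lay between 6.69 and 6.82. All 10 members had means above 6.32, the limit that was used as a filter on dim genes in an alternative fit. App, which encodes the amyloid precursor protein, was 12.58 ± 0.03 in control and 12.99 ± 0.04 in model arrays (SD, n = 3 each). It was 12.98 and 13.01 in the arrays labelled HPYD 1 and HPYD 2 but 12.53 in the array labelled HPYD 3. Prnp, which encodes the prion protein, was 11.78 ± 0.02 in control and 12.49 ± 0.07 in model arrays, and 12.54, 12.47 and 11.52 in the HPYD arrays. Xist, the RNA that coats the silenced X of female cells, lay between 5.2 and 5.69 in control arrays. It was 11.18, 11.78 and 11.60 in model and 11.33, 11.47 and 5.22 in HPYD arrays. The labels give no sex. Xist separates the model from the control arrays as the genotype does, so sex and genotype cannot be told apart in any model against control value, nor in the values of HPYD 1 and HPYD 2 against control. The array labelled HPYD 3 goes against its label. It differs from every model array in App, Prnp and Xist, so HPYD against model values that include it carry this difference as well. Several values, those of Mfsd2a among them, are also given without the array labelled HPYD 3. The arrays Model 1, Model 2 and HPYD 2 had raised skeletal muscle and granulocyte genes, with values given beside the marker lists. Leaving out these 3 arrays keeps only Model 3 in the model group. Differences from the model group in that fit, for members and partners, therefore rest on 1 model array.

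Promoter windows of 8 of the 10 members were matched by symbol in the RefSeq table of GRCm38.p6. Cdh5 and Pecam1 were not matched. The windows cover the 250 bases before a transcript start, and 3 of them are shown because they belong to the member with the widest separation between groups (Mfsd2a), the glucose transporter of the barrier (Slc2a1) and its main tight junction protein (Cldn5). Capitals mark the letters ACGTG, or CACGT on the other strand, which form the core of the hypoxia response element and part of an E-box.
Mfsd2a: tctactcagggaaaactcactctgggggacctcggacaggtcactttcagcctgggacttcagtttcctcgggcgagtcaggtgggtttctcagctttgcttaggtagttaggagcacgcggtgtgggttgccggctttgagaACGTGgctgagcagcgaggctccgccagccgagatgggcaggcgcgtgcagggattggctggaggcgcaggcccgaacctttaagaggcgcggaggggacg
Slc2a1: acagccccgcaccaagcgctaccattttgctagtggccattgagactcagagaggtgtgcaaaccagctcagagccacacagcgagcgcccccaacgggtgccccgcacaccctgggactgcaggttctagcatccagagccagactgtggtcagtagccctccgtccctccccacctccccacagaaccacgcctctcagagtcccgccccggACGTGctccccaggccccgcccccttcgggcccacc
Cldn5: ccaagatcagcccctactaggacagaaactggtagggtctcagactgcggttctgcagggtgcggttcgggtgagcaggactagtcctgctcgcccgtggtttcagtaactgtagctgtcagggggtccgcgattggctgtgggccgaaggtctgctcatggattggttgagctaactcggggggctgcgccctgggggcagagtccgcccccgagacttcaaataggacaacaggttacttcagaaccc
The Mfsd2a sequence is chr4:122961195-122961438 on the minus strand, with the 6 bases of the window that lie inside the annotated gene left out. The Slc2a1 sequence is chr4:119108495-119108744 and the Cldn5 sequence chr16:18776597-18776846, both on the plus strand, and both end at the base before the gene. A further ACGTG of the Mfsd2a window runs into the bases left out and is not in capitals. ACGTG was found in the windows of 2 of the 8 members, Mfsd2a and Slc2a1, and in 16.6% of 32851 promoter windows of this length. The letters GGAA, the core of sites for ETS factors such as Erg, or TTCC, were in windows of 6 of the 8 members and in 93.4% of all windows. GGGCGG or its complement, the GC box, was in windows of 4 of the 8 members and in 32.7% of all. A match describes the letters and is not evidence of a bound site.

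Cldn5 encodes claudin-5, the most abundant claudin of the brain endothelial tight junction. The control arrays gave 9.42, 9.66 and 9.61, the model arrays 9.73, 9.61 and 9.57 and the HPYD arrays 9.48, 9.67 and 9.85. The 3 groups overlapped, and the highest value was in the array labelled HPYD 3. The model minus control difference was 0.07 (95% confidence interval -0.17 to 0.32) and the HPYD minus model difference 0.03 (-0.22 to 0.27), which became -0.06 without the array labelled HPYD 3. The HPYD minus control difference of 0.10 became 0.01 without that array, 0.03 without Control 1 and 0.20 without HPYD 1. For model minus control it was 0.00 without Control 1, and 0.01 without Model 1, Model 2 and HPYD 2.

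Ocln encodes occludin, a membrane protein of the same junction. Signals in the control arrays were 7.37, 7.61 and 7.54, in the model arrays 7.42, 8.14 and 7.69 and in the HPYD arrays 7.60, 7.38 and 7.98. Model 2 and the array labelled HPYD 3 held the highest values, and its range over the 9 arrays, 0.77, was the widest of the members. The model minus control difference of 0.25 (-0.22 to 0.72) was 0.05 without Model 2 and 0.41 without Model 1. The HPYD minus model difference was -0.10 (-0.57 to 0.37), and it was -0.26 without the array labelled HPYD 3 and 0.10 without Model 2. For HPYD minus control it was 0.15, and -0.02 without the array labelled HPYD 3.

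Cdh5 encodes VE-cadherin, the endothelial cadherin of adherens junctions. The control arrays gave 8.73, 8.79 and 8.77, the model arrays 9.01, 8.87 and 8.67 and the HPYD arrays 8.72, 8.88 and 8.71. The control arrays lay within the range of the model arrays, and the model group held both the highest and the lowest value. The model minus control difference was 0.09 (-0.13 to 0.30). Leaving out Model 1, Model 2 and HPYD 2, the 3 arrays with raised muscle genes, gave -0.10, and leaving out Model 1 alone gave 0.00.

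Pecam1 encodes CD31, an adhesion protein found on all endothelium and on some blood cells. Signals in the control arrays were 7.83, 7.96 and 8.02, in the model arrays 8.06, 8.05 and 7.99 and in the HPYD arrays 8.01, 7.99 and 7.92. Its values spanned 0.23, and the groups overlapped. The model minus control difference was 0.10 (-0.05 to 0.25) and the HPYD minus model difference -0.06 (-0.21 to 0.09). Without Control 1 the first was 0.04, and without the 3 arrays with raised muscle genes they were 0.05 and -0.02.

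Flt1 encodes VEGF receptor 1. The control arrays gave 9.39, 9.39 and 9.45, the model arrays 9.25, 9.42 and 9.41 and the HPYD arrays 9.35, 9.34 and 9.34. It had the narrowest range of the members, 0.20. All HPYD arrays lay below all control arrays, but by only 0.044 between the nearest arrays, and the difference was -0.07 (-0.21 to 0.07, adjusted p = 0.86 from limma).

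Tek encodes Tie2, the receptor of the angiopoietins. Signals in the control arrays were 7.95, 7.98 and 8.19, in the model arrays 8.13, 8.12 and 8.20 and in the HPYD arrays 7.93, 7.79 and 8.11. The HPYD arrays lay below the model arrays, with a gap of 0.015 between the nearest of them, and overlapped the control arrays. The HPYD minus model difference was -0.21 (-0.43 to 0.01, adjusted p = 1 from limma) and it was -0.29 without the array labelled HPYD 3. It was -0.13 without HPYD 2, which moved it by over 1.5 times, and -0.18 without the 3 arrays with raised muscle genes.

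Slc2a1 encodes the glucose transporter GLUT1, which is also expressed by astrocytes. The control arrays gave 11.61, 11.51 and 11.44, the model arrays 11.34, 11.65 and 11.51 and the HPYD arrays 11.52, 11.78 and 11.57. The highest value was in HPYD 2 and the lowest in Model 1, and the groups overlapped. The HPYD minus model difference was 0.13 (-0.11 to 0.36). It rested on single arrays, with 0.04 without Model 1, 0.05 without HPYD 2, 0.20 without Model 2 and 0.03 without the 3 arrays with raised muscle genes. The HPYD minus control difference of 0.11 was 0.03 without HPYD 2.

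Mfsd2a encodes a transporter that takes up lysophospholipids carrying docosahexaenoic acid and that limits transcytosis across the brain endothelium. Signals in the control arrays were 10.29, 10.30 and 10.25, in the model arrays 10.23, 10.30 and 10.06 and in the HPYD arrays 10.54, 10.75 and 10.45. Every HPYD array lay above every control and every model array, and the gap between the nearest arrays was 0.155 to the controls and 0.156 to the model arrays. The HPYD minus model difference was 0.39 (standard error 0.09, 95% confidence interval 0.18 to 0.60), a fold of 1.31, and the HPYD minus control difference was 0.30 (0.09 to 0.51), a fold of 1.23. The limma p was 0.00274 and 0.0105, and after adjustment over all genes 1 and 0.86, so neither passed. The exact two-sided permutation test gave p = 0.1 for both, the smallest that 3 arrays against 3 allow. The model minus control difference was -0.09 (-0.29 to 0.12). These comparisons share arrays and are not independent of each other.

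Since every HPYD array lay above all others, leaving out any 1 array could not reverse the sign of either HPYD difference for Mfsd2a. Such fits show only how far the size of these differences moved. Over the alternatives the HPYD minus model value lay between 0.30 and 0.52, with an adjusted p between 0.639 and 1, and the HPYD minus control value lay between 0.22 and 0.37, with an adjusted p between 0.524 and 1. Without the array labelled HPYD 3 the values were 0.45 and 0.37, and without the 3 arrays with raised muscle genes 0.44 and 0.22. In the array labelled HPYD 3, whose App and Xist values were like those of the controls, Mfsd2a was above all control arrays. So were 39.6% of all genes in that array. For model minus control, leaving out the 3 arrays with raised muscle genes gave -0.22. This value rests on Model 3 alone, which held the lowest Mfsd2a signal of all arrays (10.06).

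Abcb1a encodes P-glycoprotein, the main drug efflux pump of the barrier. The control arrays gave 8.63, 8.70 and 8.70, the model arrays 8.66, 8.78 and 8.65 and the HPYD arrays 8.62, 8.69 and 8.91. The array labelled HPYD 3 was highest and HPYD 1 lowest. The HPYD minus model difference was 0.05 (-0.15 to 0.24), and -0.04 without the array labelled HPYD 3. Without the 3 arrays with raised muscle genes it was 0.12.

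Slco1a4 encodes an organic anion transporter of brain capillaries. Signals in the control arrays were 8.57, 8.58 and 8.72, in the model arrays 8.45, 8.63 and 8.61 and in the HPYD arrays 8.58, 8.23 and 8.82. The lowest and the highest value were both in the HPYD group, 0.59 apart. The HPYD minus control difference was -0.08 (-0.40 to 0.24), and -0.22 without the array labelled HPYD 3. It was 0.08 without HPYD 2, and 0.08 without the 3 arrays with raised muscle genes.

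**Figure D1:**
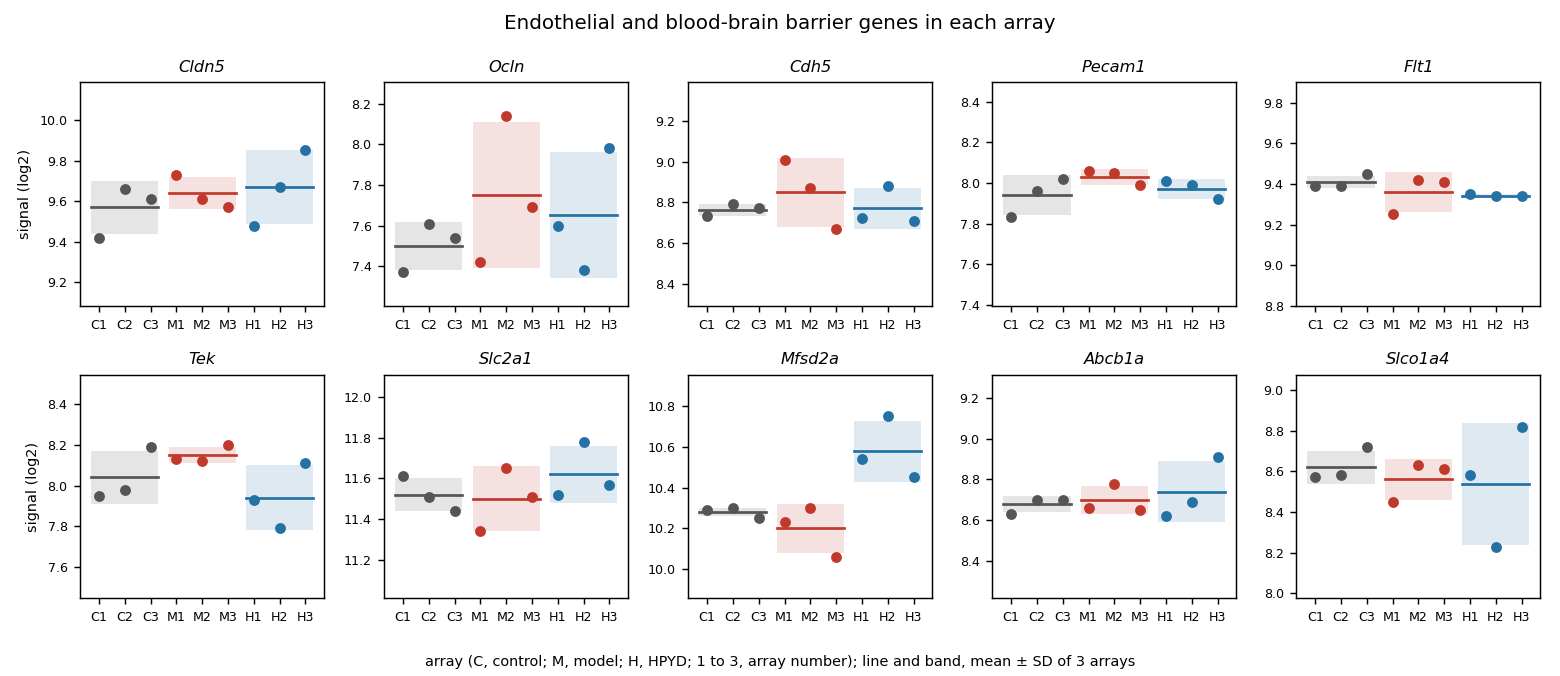
Deposited log2 signal of each member in the 9 arrays (C, control; M, model; H, HPYD), with the mean and SD of 3 arrays as line and band. Every panel spans the same height in log2 units, and Mfsd2a is the member whose HPYD arrays, from 10.45 to 10.75, lie above all other arrays.

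With the groups compared as a whole, 0 of the 10 members passed the adjusted threshold of 0.05 in any of the 3 pairwise comparisons or in the F test over the groups, and 0% of all genes did in each. At an unadjusted p under 0.05, model against control had 0 members higher and 0 lower, beside 2.87% and 2.05% of all genes. HPYD against model had 1 higher, Mfsd2a, and 0 lower, beside 1.22% and 0.752%. HPYD against control had 1 higher, again Mfsd2a, and 0 lower, beside 2% and 1.24%. The F test had 1, Mfsd2a (adjusted p = 0.939 from limma), beside 2.74%. With 10 members, 1 is the smallest count above 0.

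The arrays of model and control did not separate for any member, with 4.83% of all genes separated upwards and 4.68% downwards. For HPYD against model they separated upwards for 1 member, Mfsd2a, beside 2.24% of all genes, and downwards for 1, Tek, beside 0.983%. For HPYD against control they separated upwards for Mfsd2a, beside 4.78%, and downwards for Flt1, beside 4.74%.

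The median difference over the members was 0.05 for model against control, with 6 means higher and 4 lower, beside a median of -0.01 over all genes. It was -0.02 for HPYD against model, with 4 higher and 6 lower, beside 0.02, and 0.05 for HPYD against control, with 7 higher and 3 lower, beside 0.01. These medians moved when arrays were left out. For model against control it was 0.01 without Control 1, 0.02 without Model 2, 0.00 without the 3 arrays with raised muscle genes and -0.01 with the muscle level as a covariate. For HPYD against model it was 0.07 without those 3 arrays and -0.04 without the array labelled HPYD 3. For HPYD against control it was 0.00 without the array labelled HPYD 3 and 0.01 without Control 1. Of the 30 member differences, 25 had a 95% confidence interval within 0.5 on either side of 0. Half-widths ran from 0.14 to 0.47. The median range of a member over the 9 arrays was 0.42, against 0.39 for all genes.

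**Figure D2:**
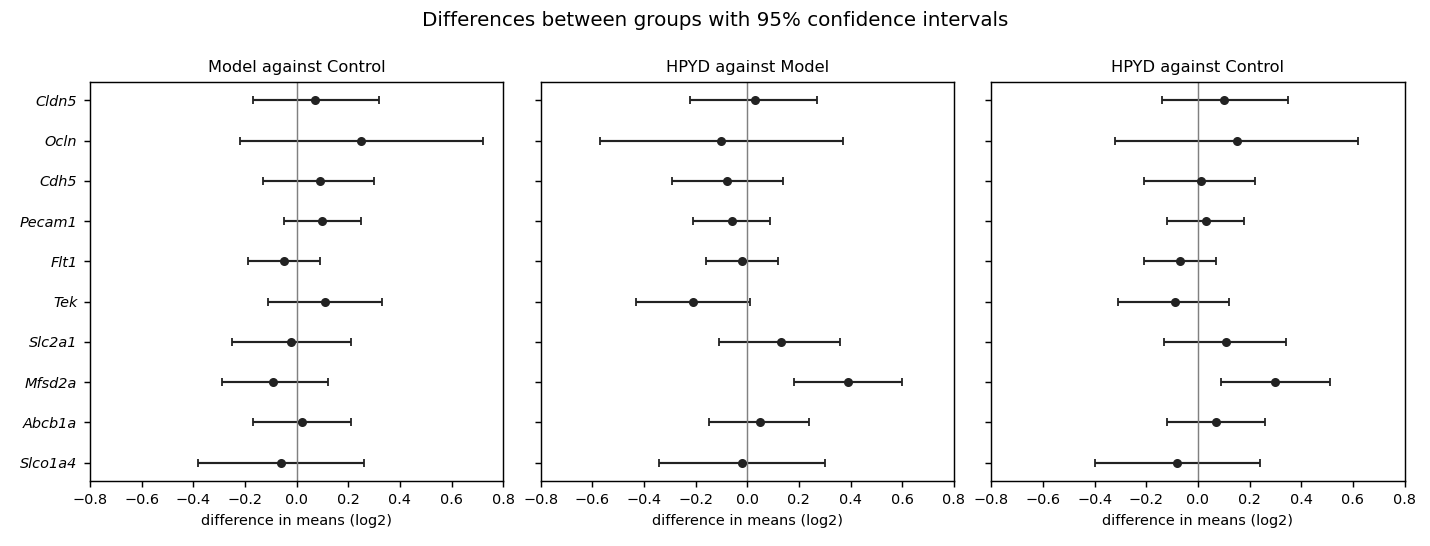
Difference between group means on the log2 scale (points) with 95% confidence intervals from limma (bars) for each member. All intervals include 0 except those of Mfsd2a for HPYD against model (0.18 to 0.60) and HPYD against control (0.09 to 0.51), neither of which passed after adjustment over all genes.

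Each array was also placed against the range of the 3 control arrays. Model 1 had 3 members above and 4 below that range, Model 2 had 5 above and 0 below, and Model 3 had 2 and 2. HPYD 1 had 1 above and 4 below, HPYD 2 had 4 and 3, and the array labelled HPYD 3 had 5 and 2. Mfsd2a was above the range in every HPYD array and Flt1 below it in every HPYD array, and no other member lay on 1 side of it in all 3 HPYD arrays or in all 3 model arrays. Over all genes, the shares above and below were 25.3% and 28.8% in Model 1 and 30.1% and 38.0% in Model 2. They were 19.1% and 20.9% in Model 3 and 20.6% and 28.1% in HPYD 1. HPYD 2 had 29.6% and 26.4%, and the array labelled HPYD 3 had 39.6% and 27.5%.

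The members' partners were taken from 6 lists with 72 measured genes. At the adjusted threshold 0 of them passed in each comparison. At an unadjusted p under 0.05, the model group had 3 higher and 1 lower than the control group, HPYD had 0 higher and 3 lower than the model group, and 3 higher and 2 lower than the control group. These are 4.17% and 1.39% of the 72 genes, beside 2.87% and 2.05% of all genes, for model against control. They are 0% and 4.17%, beside 1.22% and 0.752%, for HPYD against model, and 4.17% and 2.78%, beside 2% and 1.24%, for HPYD against control. Fits of the partner genes without the array labelled HPYD 3, and without Model 1, Model 2 and HPYD 2, were added after seeing the data. At the adjusted threshold 0 of the 72 passed without the array labelled HPYD 3. The second fit leaves 1 array in the model group, so only differences are given from it for these genes. The genes named in the lists that follow as past the unadjusted threshold had adjusted p-values of 0.859 (model and control), 1 (HPYD and model) or 0.86 (HPYD and control) from limma.

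Of 15 other endothelial identity genes, 9 had higher and 6 lower means for model against control (median 0.02), and 6 and 9 for HPYD against model (median -0.04). Emcn, which encodes the sialomucin endomucin, was 8.79 ± 0.21 in control, 9.04 ± 0.17 in model and 8.76 ± 0.03 in HPYD arrays (n = 3 arrays each), with an HPYD minus model difference of -0.28 (adjusted p = 1 from limma). It was -0.29 without the array labelled HPYD 3 and -0.08 without the 3 arrays with raised muscle genes. Erg, an ETS transcription factor of endothelium, was 7.21 ± 0.06, 7.31 ± 0.03 and 7.25 ± 0.07. Ecscr, an endothelial membrane protein, was 7.60 ± 0.11, 7.49 ± 0.09 and 7.46 ± 0.10. Sox18, an endothelial transcription factor named after its values were seen, was 0.25 higher in the HPYD than in the control group (adjusted p = 0.86 from limma), and 0.27 higher without the array labelled HPYD 3.

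Of 12 junction partners, 9 had higher and 3 lower means in each of the 3 comparisons, which share arrays, with medians of 0.05, 0.03 and 0.11. The list's median was highest, 0.19, in the array labelled HPYD 3. Without that array, HPYD minus model was -0.24 for Marveld2, -0.06 for Jam2 and Cldn12, and 0.00 for Cldn3. With it, these were 0.11, 0.01, 0.05 and 0.04. Cgn, F11r, Jam3, Lsr and Tjp1 stayed higher. Of these genes, Marveld2, Jam2, Cldn12, Cldn3, Jam3 and Lsr were named after their values were seen. F11r, which encodes the junctional adhesion molecule JAM-A, was 7.60, 7.77 and 7.66 in control, 7.93, 7.82 and 7.86 in model and 8.0, 7.89 and 7.76 in HPYD arrays. All model arrays lay above all control arrays, as for 4.83% of all genes. The difference was 0.19 (adjusted p = 0.859 from limma), and 0.18 without the 3 arrays with raised muscle genes. Tjp1, the scaffold protein ZO-1, was 9.80 ± 0.05, 9.69 ± 0.09 and 9.71 ± 0.08. Cgn, cingulin, was 6.55 ± 0.09, 6.58 ± 0.13 and 6.70 ± 0.12. Cldn1, claudin-1, varied most among the control arrays, from 7.10 to 8.17.

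Marveld2, Cgnl1, Jam2, Wnt7a and Cd34 were named after their values were seen, because Model 2 and the array labelled HPYD 3, which held the highest values of Ocln, also stood apart for them. Marveld2, which encodes tricellulin, was 6.73 in Model 2 and 7.01 in the array labelled HPYD 3, and between 5.85 and 5.99 in the other 7 arrays. Cgnl1, which encodes paracingulin, was 7.72 and 7.61 in these arrays, and at most 7.10 in the others. Jam2 was 10.13 and 10.02, and at most 9.86 in the others. The same arrays held the highest values of Wnt7a (8.73 and 8.68, at most 7.78 elsewhere) and Slc16a1 (9.49 and 9.38, at most 9.12 elsewhere), and the lowest of Cd34 (9.73 and 9.33, at least 10.23 elsewhere). One array is of the model group and the other of the HPYD group by label, so this pattern follows no group, and its cause was not tested.

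**Figure D3:**
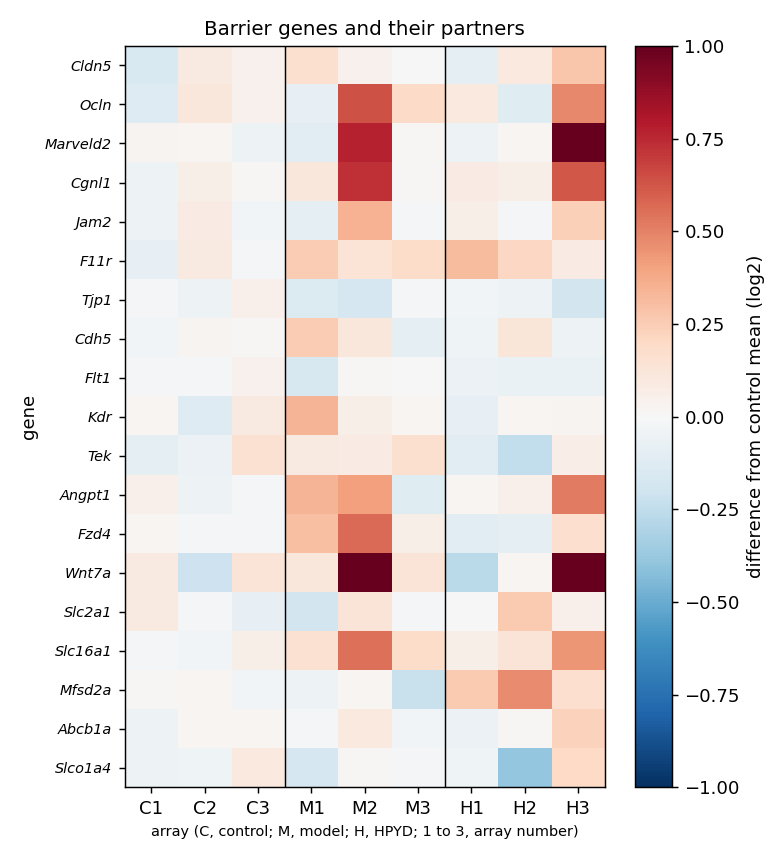
Difference of each array from the control mean (colour, log2, cut at 1 on either side) for members and partner genes, arrays in columns (C, control; M, model; H, HPYD). Model 2 and the array labelled HPYD 3 stand out for Ocln, Marveld2, Cgnl1, Wnt7a and Slc16a1, and the HPYD arrays for Mfsd2a.

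Of 13 further transporters and receptors, 9 had higher and 4 lower means for model against control (median 0.05), and 4 and 9 for HPYD against model (median -0.07). Tfrc, the transferrin receptor that brings iron across the barrier, was 8.74 ± 0.14 in control, 8.83 ± 0.08 in model and 8.58 ± 0.01 in HPYD arrays, with an HPYD minus model difference of -0.24 (-0.43 to -0.06, adjusted p = 1 from limma) and the same -0.24 without the array labelled HPYD 3. Slc7a5, the large neutral amino acid transporter LAT1, was 10.44, 10.41 and 10.54 in control, 10.67, 10.79 and 10.73 in model and 10.44, 10.79 and 10.98 in HPYD arrays. All model arrays lay above the control arrays, as for 4.83% of all genes, while the HPYD arrays spanned both. The model minus control difference was 0.27 (-0.02 to 0.56, adjusted p = 0.859 from limma). The HPYD minus control difference of 0.27 was 0.15 without the array labelled HPYD 3. Slc16a1, the monocarboxylate transporter MCT1, had a model minus control difference of 0.29 (-0.01 to 0.59), and Slc6a6, the taurine transporter, one of -0.09 (-0.22 to 0.03). Slc22a8, the organic anion transporter OAT3, named after its values were seen, was lower in the HPYD than in the control group at 9.13 ± 0.13 against 9.41 ± 0.12 (n = 3 arrays each), past the unadjusted threshold. The difference of -0.28 was -0.26 without the array labelled HPYD 3.

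Of 10 ligands and receptors of the VEGF and angiopoietin systems, 8 had higher and 2 lower means for model against control (median 0.08). Nrp2, a coreceptor for VEGF and semaphorins that neurons also express, was 9.22, 8.99 and 8.81 in control, 8.72, 8.17 and 8.44 in model and 8.48, 8.67 and 8.19 in HPYD arrays. Every APP/PS1-labelled array lay below every control array, and the share of all genes that do so was not counted. The differences from control were -0.56 in both groups (adjusted p = 0.859 and 0.86 from limma), and that of HPYD was -0.43 without the array labelled HPYD 3. Kdr, VEGF receptor 2, was 7.16 ± 0.11, 7.30 ± 0.18 and 7.15 ± 0.06, and Flt4, VEGF receptor 3, was 6.58 ± 0.10, 6.69 ± 0.04 and 6.72 ± 0.06. Angpt2, a ligand of Tek that can block its signal, was 6.16 ± 0.08, 6.22 ± 0.15 and 6.41 ± 0.06, with an HPYD minus control difference of 0.25 (adjusted p = 0.86 from limma), or 0.24 without the array labelled HPYD 3.

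Of 16 genes of the Wnt pathway that induces the barrier, 7 had higher and 9 lower means in the model than in the control group (median 0.00). Between the HPYD and model groups 10 were higher and 6 lower (median 0.01). Fzd4, the receptor for Norrin and Wnt ligands, was 7.52, 7.49 and 7.48 in control, 7.80, 8.07 and 7.56 in model and 7.39, 7.40 and 7.67 in HPYD arrays. The model arrays lay above the control arrays, as for 4.83% of all genes. The model minus control difference was 0.31 (adjusted p = 0.859 from limma) and the HPYD minus model difference -0.32 (adjusted p = 1 from limma), and both use the model arrays. Without the array labelled HPYD 3 the second was -0.41, and without the 3 arrays with raised muscle genes they were 0.06 and -0.03. Lrp5, its coreceptor, was 7.83 ± 0.03, 7.96 ± 0.14 and 7.99 ± 0.08. Axin2, a common target of the pathway, was 7.48 ± 0.05, 7.38 ± 0.11 and 7.42 ± 0.03.

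Of 6 genes of activated or leaky endothelium, 6 had higher means for model against control (median 0.06, beside -0.01 over all genes). Plvap, Icam1 and Sele, named after their values were seen, differed by only 0.01, 0.00 and 0.01. Without the 3 arrays with raised muscle genes they were -0.20, -0.01 and -0.06, and Lcn2 went from 0.87 to -1.99. Vcam1 went from 0.12 to 0.05. Cav1, the coat protein of caveolae, was 8.01, 7.82 and 8.14 in control, 8.73, 8.60 and 8.11 in model and 7.94, 8.43 and 8.14 in HPYD arrays. Its highest values were in Model 1, Model 2 and HPYD 2, and Model 3 lay within the control range. Its model minus control difference was 0.49, and 0.12 without these 3 arrays. Vcam1 was 8.53 ± 0.08, 8.65 ± 0.06 and 8.58 ± 0.21. Lcn2, which granulocytes also express, was 11.72, 11.99 and 11.41 in the same 3 arrays and at most 10.13 in the others.

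Markers of other cells were read in the same arrays. For 7 genes of peripheral capillary endothelium, set against their control mean, the median lay at 1.21 in Model 1, 1.24 in Model 2 and 0.36 in HPYD 2, and between -0.04 and 0.09 in the other arrays. Fabp4, which peripheral endothelium and fat cells express and which was named after its values were seen, was 8.41, 7.13 and 6.10 in these arrays and at most 4.87 elsewhere. Cd36 and Aqp7 also had their highest values there, but the list was not uniform. Gpihbp1 was 6.56, 6.32 and 6.50 (control mean 6.34) and Rbp7 5.84, 5.74 and 5.69 (control mean 5.74). Aqp1 was 7.90, 8.62 and 7.56, but also 7.80 in the array labelled HPYD 3. These genes too were named after their values were seen. For 12 skeletal muscle genes the medians were 2.09, 3.75 and 0.66, and for 9 granulocyte genes 3.43, 3.80 and 2.78. Acta1, the actin of skeletal muscle, was 10.23, 11.93 and 8.64 in these arrays and at most 7.88 elsewhere. Ngp, a granule protein of neutrophils, was 12.33, 12.45 and 11.66 and at most 9.13 elsewhere. Medians in the same arrays were 1.46, 1.16 and 0.53 for 5 fibroblast genes, 1.24, 1.67 and 0.74 for 4 platelet genes and 1.29, 2.12 and 1.59 for 3 erythroid genes. The members' own median in these arrays was -0.03, 0.09 and 0.03, and over all 9 arrays it lay between -0.05 and 0.12. The part of this other RNA in the values of single members was not tested.

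Pericyte genes (12), which share the capillary with the members, had medians between -0.09 and 0.03 in every array. Vtn, vitronectin, was 10.86 ± 0.01, 10.83 ± 0.08 and 10.80 ± 0.18. For HPYD against model, 4 pericyte genes had higher and 8 lower means. At an unadjusted p under 0.05 from limma, 1 of the 12 was lower, Anpep (-0.36, -0.64 to -0.07), beside 0.752% of all genes. Abcc9 was 8.10 in Model 2 and at most 7.50 elsewhere. Anpep and Abcc9 were named after their values were seen. Choroid plexus genes (8) had medians from -0.52 to 1.22, with Control 2, Model 2, Model 3, HPYD 1 and the array labelled HPYD 3 at 0.72 or above. Ttr, transthyretin, was 9.26 in Control 1, 10.84 in Control 3 and 9.30 in HPYD 2, and 12.54 or more in the other 6. Medians of neuron genes (6) lay between -0.09 and 0.09 and of astrocyte genes (7) between -0.09 and 0.25. Those of vascular smooth muscle genes (6) lay between -0.25 and 0.18. Single neuron and astrocyte genes, named after their values were seen, moved either way in Model 2 and the array labelled HPYD 3. Of neuron genes, Syt1 was 12.37 and 12.40 there (at least 12.87 elsewhere) and Slc17a7 11.09 and 11.45 (at least 11.76). Nefl was 12.37 and 12.33 (at most 12.27), and Rbfox3 did not stand apart. Of astrocyte genes, Slc1a2 was 12.05 and 12.01 (at least 12.41) and Aqp4 10.70 and 10.47 (at most 10.07). Microglia genes (4) were lowest in the array labelled HPYD 3 (-0.74) and in Model 2 (-0.47), where Ocln was highest.

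**Figure D4:**
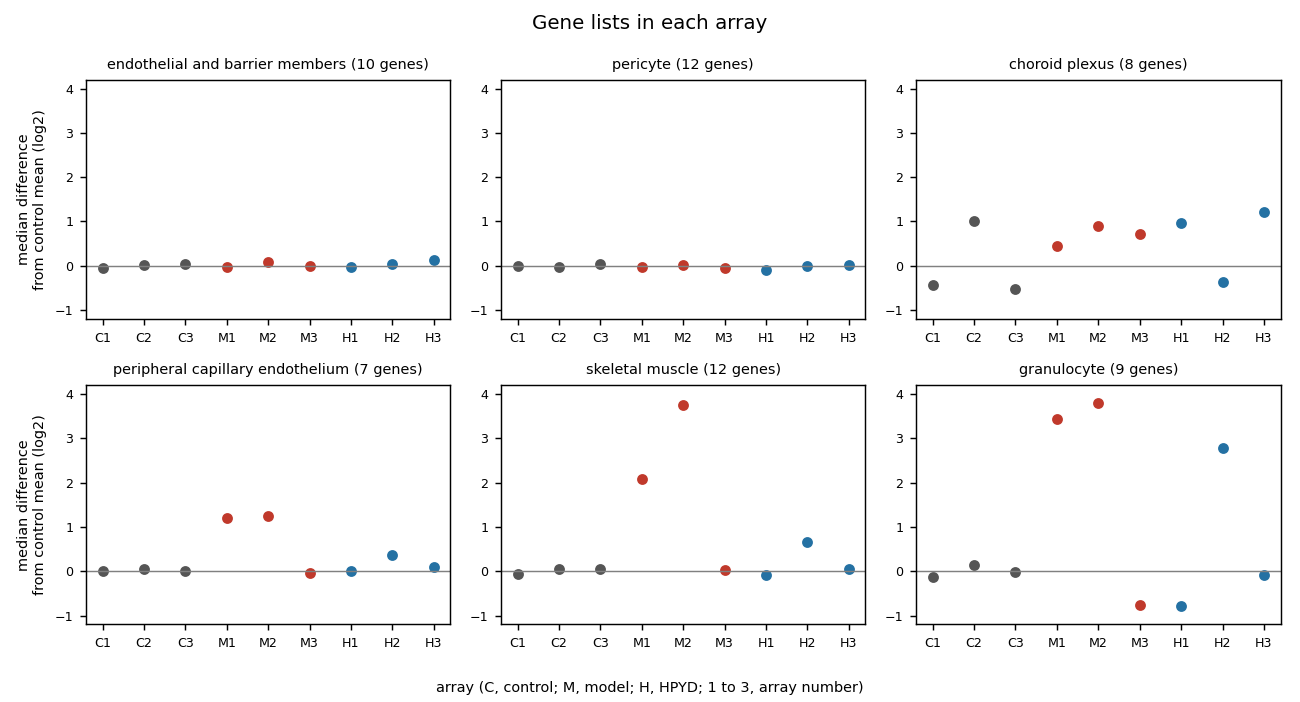
Median difference from the control mean (log2) over the genes of a list, in each of the 9 arrays (C, control; M, model; H, HPYD). The medians of the members stay between -0.05 and 0.12 and those of the pericyte genes between -0.09 and 0.03. The medians of the muscle, granulocyte and peripheral endothelial lists are raised in Model 1, Model 2 and HPYD 2.

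The members' mean deviation from their own means was highest in the array labelled HPYD 3 (0.10) and Model 2 (0.09) and lowest in Control 1 (-0.08). The genes whose pattern over the 9 arrays was most like it, of 19927 compared, were Pdcl (Pearson's r = 0.983), Jup (0.981), Lgi4 (0.979), Pigc (0.979) and Mtmr14 (0.978), a description over 9 arrays that share the same scaling. Jup, which encodes plakoglobin of adherens junctions and desmosomes, was 10.31 in Model 2 and 10.47 in the array labelled HPYD 3, and between 9.28 and 9.65 in the other arrays.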

How the data were processed

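Brain RNA was hybridised to 9 Affymetrix arrays, grouped by their sample labels. The authors deposited 1 table of log2 values, 35556 probe sets in all, running from 2.37 to 14.01. MAS5 is the tool named in the submitters' notes. Background correction and normalization are steps not given in the sources used here. Their effect on the scale is unknown. No further scaling was applied, since array medians ran from 6.69 to 6.82.

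Probe sets were named from the platform's gene table: 21789 had a single symbol, 1621 several, and 12146 are unnamed here. RefSeq (GRCm38.p6) matched 21698 Entrez identifiers and changed 0 symbols. Where a gene had several probe sets (999 genes), that with the highest mean was used, leaving 19938 genes. The 3 groups were fitted in 1 model without covariates in R 4.3.3 with limma 3.58.1 (6 residual and 2.13 prior degrees of freedom), with Benjamini-Hochberg adjustment over all genes and a threshold of 0.05. The fit was tested on simulated data. Exact two-sided permutation tests used scipy 1.17.1. Precision is limited by the number of arrays.

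The members and the 18 gene lists were chosen with earlier results of these data known. Besides the members, the text names from each of 6 pathway lists the 3 genes with the smallest p for model against control and the 1 with the smallest for HPYD against model, the gene with the highest mean of some marker lists, of up to 3 per list that the rule allows, the 5 genes most like the members, and App, Prnp and Xist as label checks. Genes outside this rule are marked where they are named. The alternatives changed the scaling, the variance model, the weights or the probe set rule, removed dim genes or single arrays, kept 2 groups only, added the replicate block, left out 3 arrays with raised muscle genes, took the muscle level as a covariate, or used the analysis of variance of the study's methods and an unadjusted threshold.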

Additional observations from a re-analysis of the deposited data

How the results depend on the processing

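All 30 differences of single members stayed past no adjusted threshold under any of the 19 alternatives, and 14 of them kept their sign throughout, the 3 of Mfsd2a and of Tek among them. In Mfsd2a the HPYD arrays overlapped neither group, in Tek not the model arrays and in Flt1 not the control arrays. Leaving arrays out could therefore not change the signs of those differences. The signs of model minus control for Mfsd2a and Tek, and of HPYD minus control for Tek, were not fixed in this way. The replicate block left 0 members called and gave 0.39 for Mfsd2a, HPYD against model (adjusted p = 1 from limma). Deviations of same-numbered arrays from their group means had correlations from -0.32 to 0.18. Differently numbered arrays were not compared, so whether the numbers pair the arrays was not settled. An unadjusted p under 0.05 called 1 member, Mfsd2a, for HPYD against model, HPYD against control and the 3 groups, and so did the methods' analysis of variance before adjustment, with 0 after Benjamini-Hochberg. Without the 3 arrays with raised muscle genes the members' median for HPYD against model was 0.07. Small differences changed sign. For model against control, Abcb1a was -0.01 with arrays shifted to one median, and without the 3 arrays and with the muscle covariate -0.03 each. Flt1 was 0.00 and Cdh5 -0.10 without the 3 arrays, and with the covariate Cdh5 was -0.05 and Slco1a4 0.00. For HPYD against model, the fit without the 3 arrays gave Cdh5 0.05, Slco1a4 0.09 and Ocln 0.10, and the covariate Cdh5 0.04 and Ocln 0.03. For HPYD against control, Cdh5 was -0.01 with one median, -0.05 without the 3 arrays and -0.01 with the covariate, and Slco1a4 0.08 without the 3 arrays. The cause was not tested. Leaving out single arrays gave, for model against control, Slc2a1 -0.09 to 0.06, Abcb1a -0.02 to 0.04 and Flt1 -0.08 to 0.01. For HPYD against model it gave Cldn5 -0.06 to 0.12, Abcb1a -0.04 to 0.10, Flt1 -0.08 to 0.01, Cdh5 -0.17 to 0.00, Slco1a4 -0.16 to 0.14 and Ocln -0.26 to 0.10. For HPYD against control it gave Pecam1 -0.02 to 0.08, Abcb1a -0.02 to 0.13, Cdh5 -0.05 to 0.04, Slco1a4 -0.22 to 0.08 and Ocln -0.02 to 0.29. Over all genes, counts past the adjusted threshold were 0 except with only the arrays compared (5 for model against control) and without the array labelled HPYD 3 (7 for model and control, 8 for HPYD and control, 7 for the F test), none of them a member.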
